A study of Rana omeimontis with 6 samples.

Results

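Transcripts for hepcidin and for the proteins that carry, store, export and release iron were described in the liver of tadpoles of the frog Rana omeimontis. The rows were chosen by name: of 121726 transcript clusters in the expression matrix, 32 had a first protein description containing hepcidin, ferritin, transferrin, solute carrier family 40, ferroportin, heme oxygenase, hemojuvelin, transmembrane protease serine 6 or ceruloplasmin. Of these, 26 rows named iron-handling proteins. The other 6 were enzymes caught because their names contain the word transferring, such as electron-transferring-flavoprotein dehydrogenase, and they were kept apart. The set was proposed with the difference between the stages already known, so that difference is described here with no p-value for any of these rows. How many of them a fit over all features called is given beside the share it called of all features, and supports nothing.

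The libraries came from tadpole liver, 3 from after and 3 from before the fat accumulation that is part of ontogeny, per the labels. The series relates hepatic fat to somatic growth and lipid-based energy metabolism. The animals were collected in a nature reserve, per the labels, which give no age, sex or developmental stage number and do not say whether a library was 1 animal or a pool. The p-values below therefore rest on how far these 6 libraries scatter, and that scatter may be technical only. Values are FPKM, fragments per kilobase of transcript scaled to the mapped total of the library, so levels of different genes can be set side by side per length.

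Hepcidin is a small peptide hormone that the liver secretes. In mammals it binds ferroportin, the only known exporter of iron from cells, and causes its removal from the cell surface, so that less iron enters the plasma. Its transcription in mammalian hepatocytes is raised by iron, through bone morphogenetic proteins and SMAD factors, and by inflammation, through interleukin-6 and STAT3, and it is lowered when red cell formation increases. Serotransferrin carries iron in plasma, ferritin stores it inside cells, and heme oxygenase frees it from heme.

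Liver markers were present in all 6 libraries, but so were those of other tissues. The 9 pancreas markers, all matched, took 25.7% to 33.2% of the summed FPKM after and 21.6% to 33.6% before fat accumulation. Summed erythroid markers (7 of 9 matched, globins by far the most abundant) lay at 23875 to 27537 FPKM after and 16616 to 21574 before, without overlap (exact permutation test, two-sided, p = 0.1, the smallest that 3 against 3 libraries can give). Summed hepatocyte markers (6 of 7 matched, APOA1 by far the most abundant) lay at 6751 to 7764 after and 2648 to 5121 before (exact permutation test, p = 0.1). Of the single hepatocyte markers, only ALB and TTR passed in the limma fit given below. Summed macrophage markers (6 of 11 matched) overlapped, at 106 to 166 after and 113 to 164 before, and CD68 was listed at 0 in 3 libraries. In bulk liver, fewer cells of a type and less RNA per cell cannot be told apart.

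Hepcidin transcripts were far less abundant after fat accumulation than before it, while those of its target ferroportin were more abundant. The single hepcidin row, described from the hepcidin of the lizard Anolis carolinensis, measured 11.98, 37.22 and 8.15 FPKM in after replicates 1, 2 and 3, and 1949, 1106 and 2657 FPKM in before replicates 1, 2 and 3. The stages were far apart: the lowest library from before exceeded the highest from after 29.7-fold. The means were 19.1 ± 15.8 FPKM after and 1904 ± 777 before (SD, n = 3 each), a 99.6-fold lower mean after fat accumulation. On the log2(FPKM + 1) scale, where each library counts equally, the difference was -6.76 ± 0.57 (SE).

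By abundance among all rows the hepcidin row ranked 2226 to 8101 in the 3 libraries from after, against 101 to 165 in the 3 from before. Of the 40548 features that reached 1 FPKM in 3 or more libraries, 1 had a more negative difference in the mean of the logs and 2 in the log of the means. Among the 186 features with a stage mean of at least 1000 FPKM, hepcidin had the most negative difference on both. It reached that mean only before fat accumulation, so this cut favours a negative difference. The ranks are a description and support nothing, since the set was proposed with this contrast known. Among the hepatocyte markers, ALB and TTR, which encode the plasma proteins albumin and transthyretin, rose (log2 difference 3.54, adjusted p = 0.0163, and 3.69, adjusted p = 0.0108, limma), and the other 4 did not pass. The part of the cell make-up in the hepcidin difference was not tested. With each library rescaled to its total without the pancreas markers, the difference in hepcidin's mean was -6.51 on the log2 scale, beside -6.57 as deposited. The rescaling factors were 0.915 to 1.096, so this step could move the difference only little and does not test the cell make-up. Leaving out 1 library gave -7.43 without after replicate 2, the highest of its stage, and -6.84 to -6.22 without any other. Within a stage, the highest hepcidin library was 4.57-fold above the lowest after and 2.40-fold before.

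**Figure D1:**
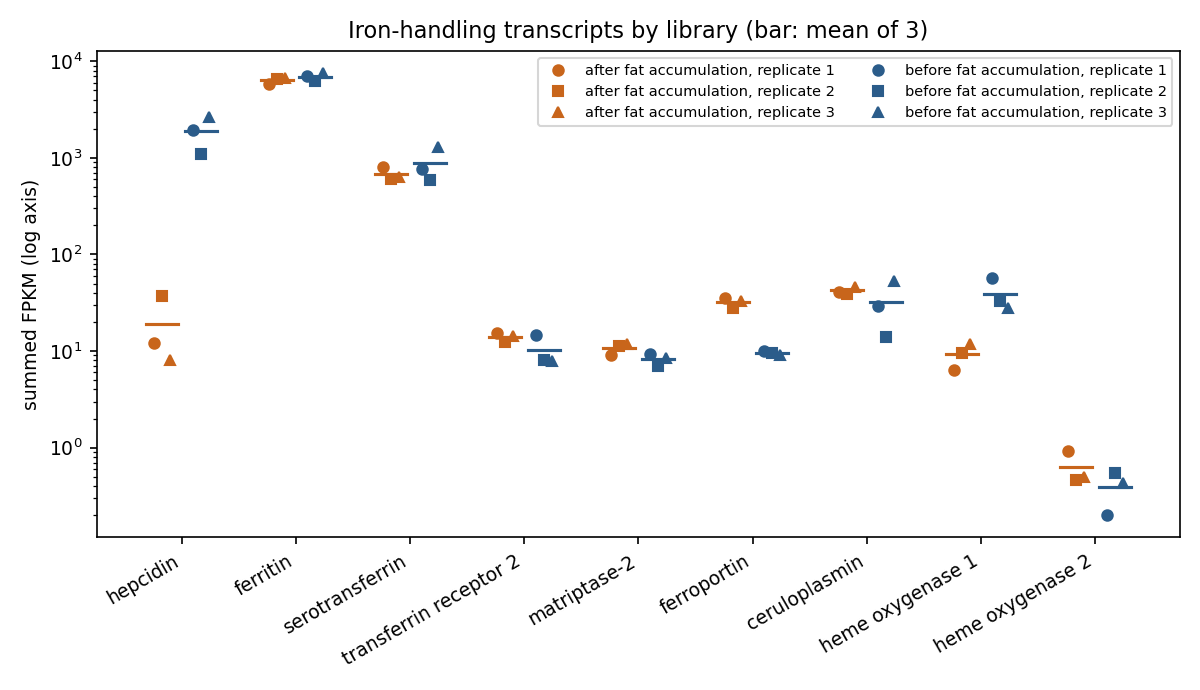
Summed FPKM of each iron-handling protein by library on a log axis, with the libraries from after fat accumulation left of those from before; each symbol is a library and each bar the mean of 3. Hepcidin spans 8.15 to 37.2 FPKM after and 1106 to 2657 before, ferroportin is higher and heme oxygenase 1 lower after, and the other proteins overlap.

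Of the 26 iron-handling rows, 16 passed that filter on low values, and the highest value in any of the other 10 was 2.72 FPKM. In a limma fit over all 40548 features, 2 of the 16 were past an adjusted p of 0.05, both lower after, namely hepcidin and the heme oxygenase 1 row. None was past it in the higher direction. At an unadjusted p under 0.05 there were 2 rows higher and 3 lower, beside 10788 of all 40548 features in either direction. Over all features the fit called 8.64%, with 4.64% higher and 4% lower, and nothing is read from the comparison since the set was proposed with this contrast known. The stages did not overlap in 4 of the 16 rows, 2 higher and 2 lower, beside 32.5% of all features, and nothing is read from that count either.

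**Figure D2:**
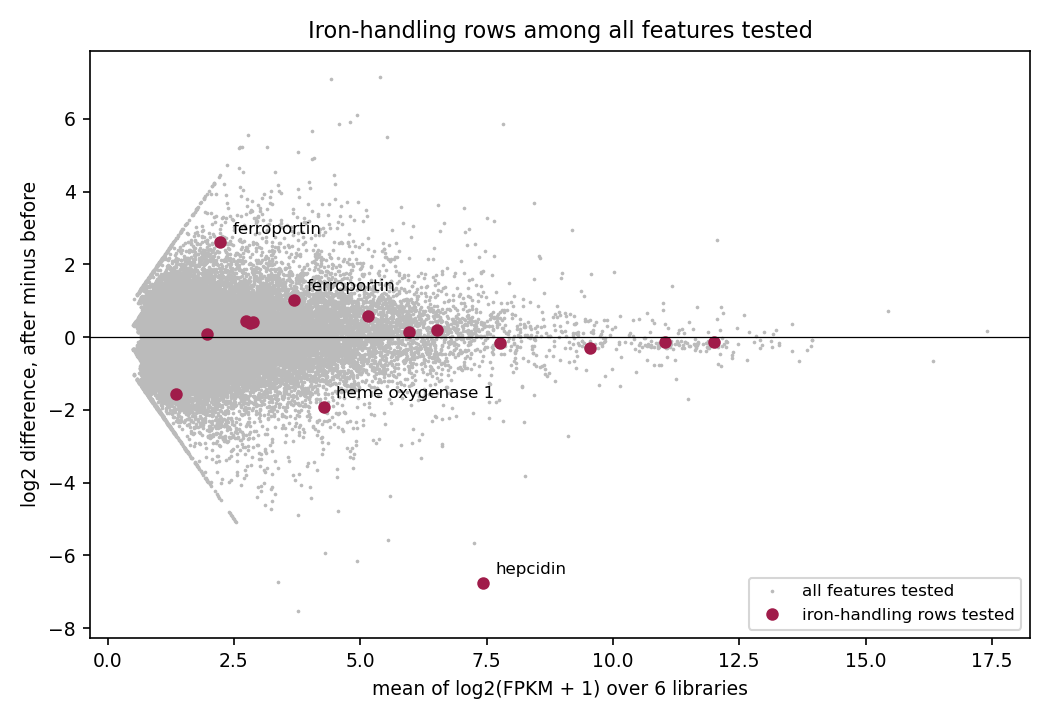
Log2 difference (after minus before) against the mean of log2(FPKM + 1) for all 40548 features tested (grey points) and the 16 iron-handling rows tested (red points). Hepcidin lies at -6.76, the heme oxygenase 1 row at -1.91, and the 2 ferroportin rows at 1.03 and 2.60, while the most abundant rows, those of ferritin and serotransferrin, lie near 0.

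Both proteins of the set that act on hepcidin in mammals overlapped between the stages. Transferrin receptor 2, which senses transferrin-bound iron in hepatocytes and favours hepcidin transcription, summed over its 2 rows to 15.3, 12.5 and 14.3 FPKM after and 14.8, 8.04 and 7.91 before. Before replicate 1 lay among the libraries from after, and the other 2 from before lay below them. The means were 14.02 ± 1.45 FPKM after and 10.2 ± 3.92 before (SD, n = 3 each). Matriptase-2 is the protease that cuts the coreceptor hemojuvelin and so restrains hepcidin. Its 2 rows summed to 9.12, 11.2 and 11.8 FPKM after and 9.32, 7.06 and 8.40 before, with after replicate 1 just below the highest library from before. The description rule took no row for hemojuvelin or for transferrin receptor 1, and these are not described here.

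Ferroportin transcripts were higher in every library from after fat accumulation. The 4 rows described as solute carrier family 40 member 1 summed to 35.4, 28.1 and 32.7 FPKM after, against 10.1, 9.52 and 9.16 before. The stages were separated by 2.79-fold between the nearest libraries, and each stage was tight, with a coefficient of variation of 11.5% after and 4.73% before. The means of 32.0 ± 3.69 FPKM after and 9.58 ± 0.453 before (SD, n = 3 each) differed 3.34-fold. Without any 1 library the log2 difference of the means stayed between 1.57 and 1.73, beside 1.64 with all 6.

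The ferroportin total was steadier than the rows it is made of. The row most abundant before fat accumulation measured 14.7, 12.3 and 28.9 FPKM after and 7.93, 7.39 and 8.73 before. The second measured 20.1, 15.6 and 3.33 FPKM after, and 1.60 and 1.61 in before replicates 1 and 2, while it was listed at 0 in before replicate 3. After replicate 3 was thus the highest of its stage in the first row and the lowest in the second. Both rows carried the same description from Xenopus laevis, so reads of 1 gene may be split between them. The stages did not overlap in either row.

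**Figure D3:**
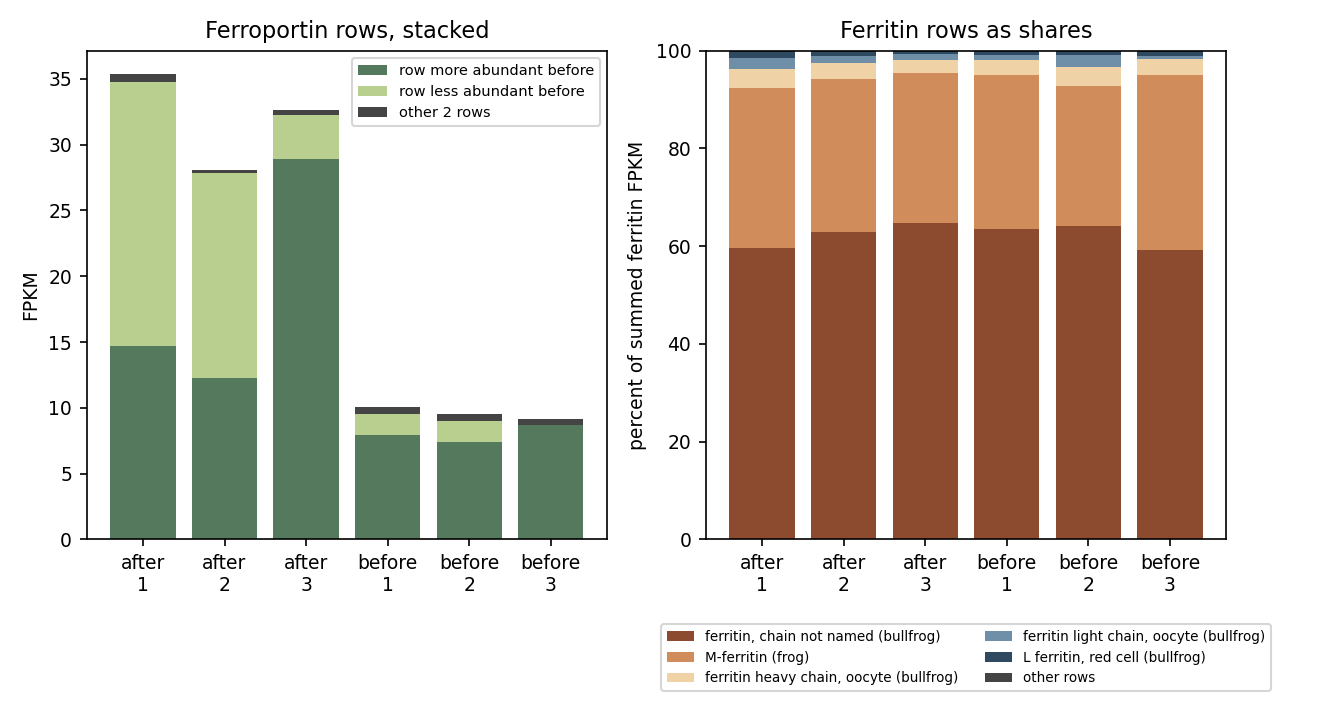
Left, FPKM of the ferroportin rows stacked by library, with libraries from after fat accumulation at the left; right, the ferritin rows as percent of summed ferritin FPKM in the same order. The ferroportin totals are 28.1 to 35.4 FPKM after and 9.16 to 10.1 before although the rows shift against each other, and the ferritin row with no chain named takes 59.2% to 64.8% in all 6 libraries.

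The order of mean levels differed between the stages in the places of hepcidin, ferroportin and heme oxygenase 1. After fat accumulation it ran ferritin, serotransferrin, ceruloplasmin, ferroportin, hepcidin, transferrin receptor 2, matriptase-2, heme oxygenase 1 and heme oxygenase 2. The hepcidin range of 8.15 to 37.2 FPKM overlapped those of ferroportin, transferrin receptor 2, matriptase-2 and heme oxygenase 1 there, and the last pair also overlapped each other. Before fat accumulation the order was ferritin, hepcidin, serotransferrin, heme oxygenase 1, ceruloplasmin, transferrin receptor 2, ferroportin, matriptase-2 and heme oxygenase 2. The range of ceruloplasmin overlapped those of heme oxygenase 1 and transferrin receptor 2 there, and the ranges of transferrin receptor 2, ferroportin and matriptase-2 overlapped each other. The ranges of hepcidin and serotransferrin overlapped too, but hepcidin exceeded serotransferrin within each library from before, by 1.90-fold to 2.56-fold, and was at 0.0129 to 0.0619 times its FPKM after. Relative to ferroportin, hepcidin was at 0.250 to 1.33 times its FPKM after and 116 to 290 times before. Ferritin was 177 to 815 times as abundant as hepcidin after and 2.85 to 5.66 times before.

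Among the plasma proteins, serotransferrin and ceruloplasmin overlapped between the stages. Serotransferrin, the iron carrier, summed over 3 rows to 812, 601 and 633 FPKM after and 762, 583 and 1292 before. Nearly all of it came from 1 row, described from Xenopus laevis, which ranked between 162 and 248 among all transcripts in the 6 libraries. The difference of the means was -0.37 on the log2 scale and rested on before replicate 3, without which it was 0.02. Ceruloplasmin is a copper-containing oxidase of plasma that converts ferrous to ferric iron, the form transferrin binds. It measured 41.2, 39.4 and 46.5 FPKM after and 29.0, 14.02 and 53.1 before. The libraries from before spread 3.79-fold and enclosed all those from after.

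Ferritin was the most abundant of the iron-handling transcripts in every library, and its stages overlapped. Summed over 10 rows it measured 5781, 6578 and 6641 FPKM after and 6994, 6254 and 7576 before, between 0.418% and 0.542% of all FPKM. The means of 6333 ± 480 FPKM after and 6941 ± 662 before (SD, n = 3 each) differed by -0.13 on the log2 scale. Ferritin shells of frogs are built from heavy, middle and light chains, of which the heavy and middle ones carry the site that oxidizes iron.

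The shares of the chains in summed ferritin also overlapped between the stages. A row described only as bullfrog ferritin, with no chain named, held 62.5% ± 2.58 of summed ferritin FPKM after and 62.3% ± 2.66 before (SD, n = 3 each). The row described as frog M-ferritin, the middle chain, held 31.6% ± 1.03 after and 32.0% ± 3.55 before. The heavy chain described from oocytes held 3.28% ± 0.635 after and 3.35% ± 0.366 before. The light chains were minor: the oocyte isoform measured 128, 94.2 and 75.2 FPKM after and 73.1, 157 and 53.2 before, and the row described as bullfrog red cell L ferritin measured 81.6, 72.7 and 44.4 after and 58.4, 45.2 and 75.1 before. These ranges overlapped. The sum of these light chain rows was 120 to 209 FPKM after and 128 to 202 before. The summed erythroid markers, mostly globins, were higher in all libraries from after, and the part of red cells in ferritin was not tested. The remaining 5 ferritin rows, described from mammals, a bird and a fish, were at most 4.55 FPKM in any library, and 2 of them were listed at 0 in all 3 libraries from after. Chains of ferritin are similar in sequence and may share reads, so the split between rows is less certain than the total.

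Heme oxygenase 1, the inducible enzyme that opens the heme ring and frees its iron, was lower after fat accumulation. Its main row measured 6.44, 9.54 and 11.8 FPKM after and 56.6, 32.2 and 26.9 before. The stages did not overlap, and with a second, mouse-described row at 0 to 0.88 FPKM the means were 9.25 ± 2.67 FPKM after and 39.1 ± 15.3 before (SD, n = 3 each), 4.23-fold lower after. The main row had a log2 difference of -1.91 ± 0.34 (SE). Macrophages, which are rich in heme oxygenase 1 in other vertebrates, had overlapping marker sums as given above, and their part in this difference was not tested. The constitutive form, heme oxygenase 2, was represented by 1 row only, described from the bird Chaetura pelagica. That row was barely detected, at 0.92, 0.46 and 0.50 FPKM after and 0.20, 0.55 and 0.43 before. Of the 6 enzymes taken only by the word transferring, electron-transferring-flavoprotein dehydrogenase of fatty acid oxidation measured 16.6 to 18.8 FPKM after and 8.73 to 9.33 before. Pyruvate dehydrogenase phosphatase 2 measured 14.5 to 34.0 FPKM after and 10.4 to 16.97 before, with overlap, and the other 4 did not pass the filter.

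Genes that control hepcidin in mammals were mostly measured at low levels, and 2 passed the test. The pathway lists below were drawn up from general knowledge, with earlier results of these data known, and hold genes outside the set described so far. Over all lists, 4 of the 45 genes tested were called higher and 5 lower. The fit called 4.64% of all features higher and 4% lower, and no list was tested as a set. An unadjusted p under 0.05, counted below for some lists, was reached by 10788 of all 40548 features (limma). Of 22 regulators, 17 were matched by name and 11 tested; ERFE rose and SMAD7 fell, and the other 9 did not pass, with a median log2 difference of -0.23 beside -0.08 over all features. ERFE encodes erythroferrone, which is released by red cell precursors in mice and lowers hepcidin by binding bone morphogenetic proteins. It measured 12.04, 4.39 and 5.88 FPKM after and 2.01, 0.660 and 1.25 before, without overlap (log2 difference 1.81 ± 0.41 SE, adjusted p = 0.0434, limma). The summed erythroid markers, mostly globins, were higher in every library from after. Of the 6 markers that could be tested, 0 were past the threshold (limma, 1 higher and 1 lower at an unadjusted p under 0.05). Without overlap of the stages, 2 were higher after, a globin row and SLC4A1, and 1 was lower, EPOR, the erythropoietin receptor. Of all features tested, 15.7% were higher and 16.8% lower without overlap, and nothing is read from the marker count. EPOR measured 0.75, 0 and 0 FPKM after and 3.52, 1.31 and 3.65 before (log2 difference -1.60 ± 0.40 SE, adjusted p = 0.0555, limma). The part of red cells and their precursors in the ERFE difference was not tested. SMAD7 is an inhibitory SMAD that is itself induced by bone morphogenetic protein signals. It measured 1.37, 1.64 and 1.26 FPKM after and 4.42, 3.39 and 4.33 before (-1.05 ± 0.23, adjusted p = 0.0407, limma).

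Among these regulators, neither the ligand BMP6 nor the tested genes of the interleukin-6 branch passed. BMP6, the iron-responsive ligand in mice, was at 0.800 to 1.52 FPKM after and 0.990 to 1.19 before (log2 difference 0.03, adjusted p = 0.947, limma). STAT3 was at 9.48, 15.4 and 8.66 FPKM after and 6.03, 4.65 and 8.48 before. Its stages did not overlap, but the difference of 0.71 did not pass (adjusted p = 0.198, limma). IL6ST, the signalling subunit of the interleukin-6 receptor, differed in the other direction. It measured 0.940, 1.49 and 1.24 FPKM after and 3.25, 2.07 and 4.64 before, without overlap (-0.92 ± 0.30, adjusted p = 0.110, limma). IL6R, the subunit that binds the cytokine, overlapped at 1.10 to 2.78 FPKM after and 1.97 to 4.70 before (-0.42, adjusted p = 0.517, limma). No row was matched to HFE or ID1. The ERFE result came from the most abundant of 4 rows matched to that gene, and with the 4 summed it did not pass (adjusted p = 0.117, limma). Neither ERFE nor SMAD7 passed in any of the 6 fits with 1 library left out, where adjusted p ran from 0.0744 to 0.112 for ERFE and from 0.0725 to 0.129 for SMAD7.

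Acute phase genes were lower in part. Hepcidin belongs to the acute phase response in mammals. Of 10 such genes 7 were matched and tested; SAA and SOCS3 fell, 0 rose (1 had an unadjusted p under 0.05 in that direction), and the median log2 difference was -0.53. SAA, serum amyloid A, measured 197, 173 and 288 FPKM after and 934, 1022 and 2958 before (-2.72 ± 0.46, adjusted p = 0.0209, limma). Without before replicate 3, far the highest of its stage, the difference was -2.185 (adjusted p = 0.0241, limma). SOCS3, a feedback inhibitor of cytokine signals, measured 7.84, 10.8 and 5.33 FPKM after and 18.6, 19.4 and 35.7 before (-1.49 ± 0.35, adjusted p = 0.0473, limma). The fibrinogen chains FGA and FGG, also of this list, had differences of 0.46 and 0.67 and did not pass. FGA overlapped between the stages. FGG did not, at 2087, 1936 and 2199 FPKM after and 1278, 1013 and 1715 before (adjusted p = 0.0928, limma). SAA passed in 2 of the 6 fits with 1 library left out, those without before replicate 1 and without before replicate 3, and SOCS3 in none (adjusted p 0.0807 to 0.137).

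Uptake of iron and heme gave no call. Of 17 genes 12 were matched and 9 tested, with 0 higher and 0 lower past the threshold (2 and 1 at an unadjusted p under 0.05, limma) and a median log2 difference of -0.16. HPX, hemopexin, the plasma protein that binds free heme, came nearest. It measured 551, 482 and 576 FPKM after and 1114, 964 and 2276 before, without overlap (-1.33 ± 0.32, adjusted p = 0.0517, limma). Leaving out before replicate 3 brought it past the threshold (adjusted p = 0.0368), as did 4 of 10 other settings, and its adjusted p ran from 0.0290 to 0.147 over all alternatives. STEAP3, a reductase of endosomal iron, was at 3.69 to 11.9 FPKM after and 2.17 to 4.17 before (1.11, adjusted p = 0.153, limma). SLC11A2 and SLC39A14, importers of iron, lay below the filter at 0.610 to 0.620 and 0.810 to 1.43 FPKM after and at 0.070 to 0.360 and 0.220 to 0.810 before. No row was matched to HP, haptoglobin.

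Among 6 genes of intracellular iron sensing and storage, 5 were tested and FBXL5 fell. FBXL5 is the iron-sensing ubiquitin ligase subunit that marks iron regulatory protein 2 for breakdown. Its row measured 8.35, 8.40 and 8.0 FPKM after and 18.0, 15.4 and 20.4 before (-1.03 ± 0.19, adjusted p = 0.0270, limma). With a second FBXL5 row added it did not pass (-0.69, adjusted p = 0.0853). IREB2 and ACO1, the iron regulatory proteins that bind ferritin and ferroportin messages when iron is scarce, had log2 differences of 0.50 (adjusted p = 0.311) and 0.38 (adjusted p = 0.307, limma). NCOA4, the receptor that takes ferritin to lysosomes, measured 44.9, 57.3 and 51.7 FPKM after and 75.1, 47.7 and 91.3 before (-0.43, adjusted p = 0.367, limma).

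Of 12 genes of mitochondrial iron and iron-sulfur clusters, 11 were matched and 8 tested. Of these 2 rose, among them NFS1, FDX1 fell and 5 did not pass, with a median log2 difference of 0.26. NFS1, the desulfurase that supplies sulfur to the clusters, measured 38.4, 29.9 and 25.3 FPKM after and 14.3, 14.6 and 15.8 before (1.001 ± 0.21, adjusted p = 0.0356, limma). The FDX1 row, described as bullfrog adrenodoxin, an electron carrier, measured 105, 100 and 76.6 FPKM after and 169, 158 and 168 before (-0.82 ± 0.17, adjusted p = 0.0372, limma). Of 5 genes of copper handling, all tested, 1 rose and 0 fell (limma, 2 higher and 0 lower at an unadjusted p under 0.05). ATP7B, the copper pump that loads ceruloplasmin, measured 14.2, 12.1 and 12.1 FPKM after and 6.47, 4.04 and 4.64 before (1.20 ± 0.23, adjusted p = 0.0283, limma). With its second row added it did not pass (1.09, adjusted p = 0.0668). When libraries were left out in turn, FBXL5, NFS1, FDX1 and ATP7B each lost their calls in all 6 fits (adjusted p 0.0507 to 0.113).

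**Figure D4:**
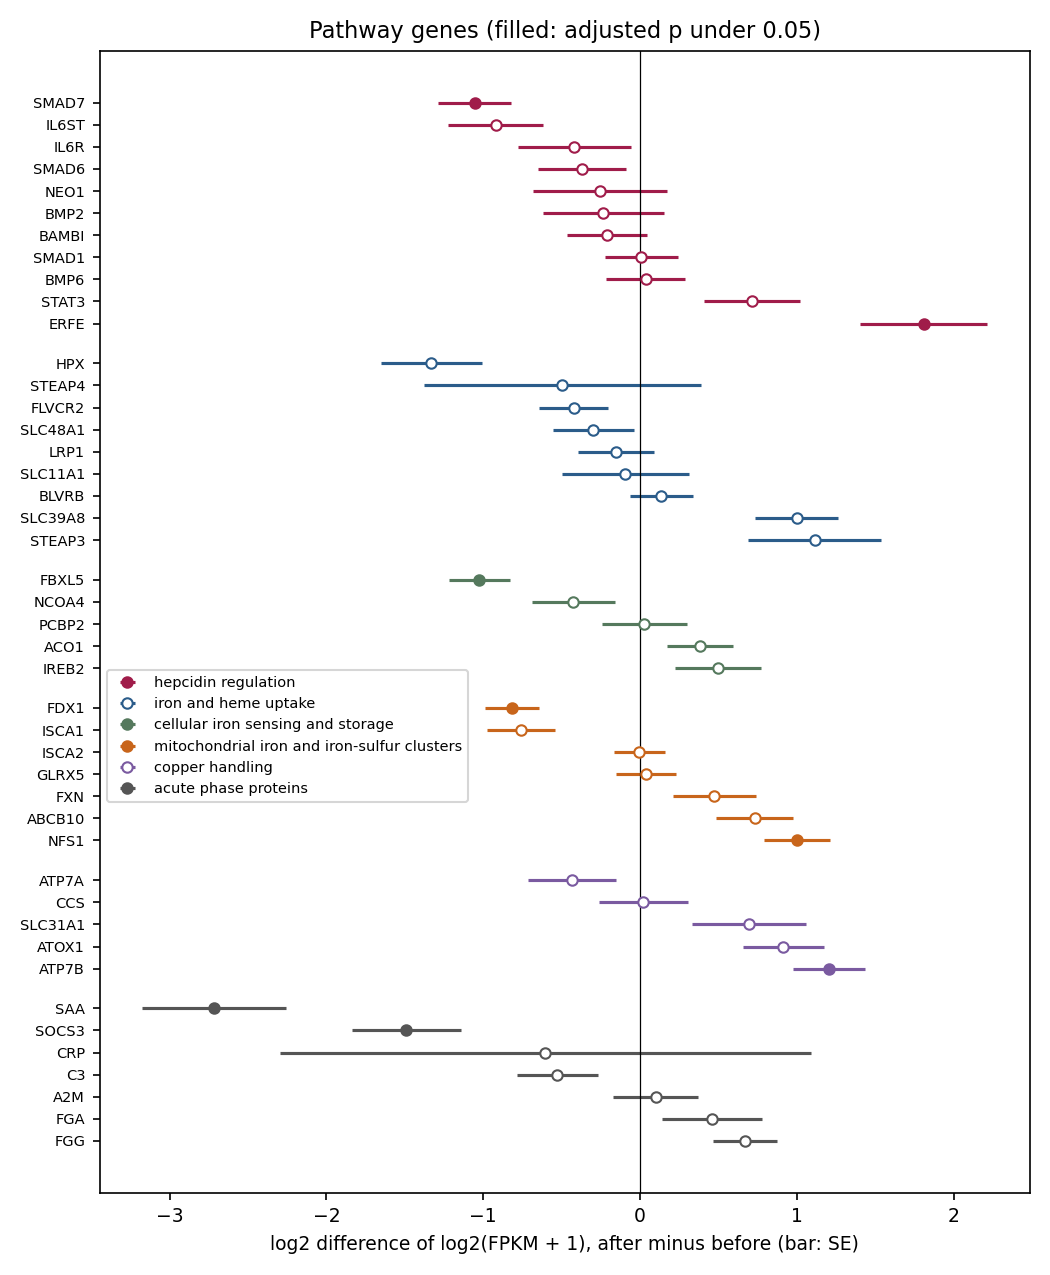
Log2 difference (after minus before) with its SE for the tested genes of the 6 pathway lists, 1 left out, grouped by list; filled points passed an adjusted p of 0.05 in the fit over all features. ERFE, NFS1 and ATP7B lie to the right and SMAD7, FBXL5, FDX1, SAA and SOCS3 to the left.

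The transcripts whose pattern over the 6 libraries was most like that of hepcidin had smaller differences than hepcidin. Nearly any would, since hepcidin ranked 2 from the most negative among 8210 tested features with a stage mean of at least 10 FPKM. Among 4150 described features with a stage mean of at least 10 FPKM, the highest Pearson's r on log2(FPKM + 1) to the hepcidin row was 0.999, for a row described as spermidine/spermine N1-acetyltransferase. It measured 46.1, 64.3 and 44.2 FPKM after and 199, 156 and 220 before. The next were heterogeneous nuclear ribonucleoprotein D (0.999), the mitochondrial L-threonine 3-dehydrogenase (0.998), a mitochondrial transporter of basic amino acids (0.997) and an uncharacterized protein (0.995). The threonine dehydrogenase measured 0.670, 1.60 and 0.530 FPKM after and 12.5, 11.7 and 15.1 before. All 5 shared with hepcidin after replicate 2 as the highest library of its stage, and the points of each correlation fall into 2 clusters, the stages, so r is a description of likeness only.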

How the data were processed

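Liver RNA was measured in 6 libraries, 3 after and 3 before fat accumulation. Per the labels' protocols, poly-A RNA from Trizol extracts was fragmented, primed with random hexamers and sequenced as paired-end reads. The authors deposited FPKM values for 121726 transcript clusters with protein descriptions. Neither the assembler, the aligner, the FPKM program nor read totals are given in the sources used, so depth is unknown and no counting interval can be given. FPKM sums per library were 1358665 to 1442121, and no libraries were identical. An FPKM of 0 may be a failed estimate.

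Rows were summed per protein without a test. The 40548 features that reached 1 FPKM in 3 or more libraries entered 1 fit by limma 3.58.1 (R 4.3.3) with eBayes trend. Values were taken as log2(FPKM + 1), and p was adjusted by Benjamini-Hochberg over all of them with a threshold of 0.05. Each difference is after minus before, and this scale understates the change of low genes. The fit was tested on simulated data. Marker sums were compared by exact permutation tests in scipy 1.17.1.

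Members and lists were chosen with earlier results of these data known. Pathway genes were matched by protein name, the most abundant row standing for a gene, and name patterns were completed from the descriptions. The text names every protein of the set, its most abundant rows, those with a stage mean of at least 10 FPKM and those called. It also names pathway genes past the threshold, except 1 that is counted but not reported here, 13 preset genes whatever their result, and the 5 features most like hepcidin. FGA, FGG, IL6ST, IL6R, ALB, TTR, APOA1, CD68, EPOR and SLC4A1 were named after their values were seen. Alternatives covered pseudocounts, filters, scalings, eBayes without trend, a replicate block, summed rows, only rows described from a vertebrate, and leaving out each library.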

Additional observations from a re-analysis of the deposited data

How the results depend on the processing

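The log2 differences of summed hepcidin, ferroportin, heme oxygenase 1, ferritin, serotransferrin, ceruloplasmin, matriptase-2 and transferrin receptor 2 moved by less than the spread between replicates under all 11 alternatives. That of heme oxygenase 2, near the detection limit, moved from 0.22 to 0.56 at a pseudocount of 0.1. Keeping only rows described from a vertebrate, 1 of the 11, changed none of these values and so checks nothing. Leaving out 1 of the 3 libraries of a stage can hardly move a difference beyond that spread, so those alternatives check little. Counts of calls depended on the setting. Over all features, 1882 were higher and 1620 lower, against 634 and 433 with no filter, and 392 to 1184 and 299 to 917 with 1 library left out. Among iron-handling rows, 0 were higher and 2 lower in the limma fit. At an unadjusted p under 0.05, 2 were higher and 3 lower, beside 10788 of 40548 features in either direction. The counts past the threshold were 0 and 1 with no filter, and 0 to 1 and 1 to 2 with 1 library left out. The row lost with no filter, and when any library but before replicate 3 was left out, was that of heme oxygenase 1, and the row called higher without after replicate 3 was a ferroportin row. Among pathway genes, 4 were higher and 5 lower. The higher count was 2 at a pseudocount of 0.1 and with FPKM summed per gene, 0 with no filter, 7 with median-of-ratios scaling, 7 when rescaled without pancreas markers and 0 to 2 with 1 library left out. The lower count was 0 with no filter, 3 without trend and 0 to 2 with 1 library left out. The cause was not tested. Without before replicate 3, 66.8% of all calls were higher, beside 53.7% with all 6 libraries.

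Same-numbered libraries did not deviate together (r = -0.005, -0.039 and -0.088 over features), and no library correlated best with its own number. These values gave no sign that the numbers pair samples, which 3 libraries per stage cannot exclude. With the replicate number as a block, 194 features were higher and 145 lower, 1 iron-handling row was higher and 1 lower, and 0 pathway genes were higher and 1 lower. With depth unknown, the rows under 1 FPKM are the least certain.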

Other observations

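Saxiphilin, a plasma protein of frogs that belongs to the transferrin family and binds saxitoxin rather than iron, was measured at 753 ± 86.7 FPKM after and 567 ± 201 before (SD, n = 3 each), beside 682 ± 113 after and 879 ± 369 before for serotransferrin. It was named after the descriptions were read. Its 6 rows summed to 793, 812 and 653 FPKM after and 736, 345 and 621 before, with overlapping stages. The main row had a log2 difference of 0.65 ± 0.31 (SE, adjusted p = 0.248, limma).

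Before replicate 3 held the highest value of its stage for hepcidin (2657 FPKM), serotransferrin (1292), ceruloplasmin (53.1), HPX (2276), SAA (2958), SOCS3 (35.7) and the metalloreductase STEAP4 (26.0, against 3.37 and 1.24 in the other 2 libraries from before). The same library held the lowest values of ALB (15.0 FPKM), TTR (41.9) and heme oxygenase 1 (27.8 summed) among the libraries from before. These genes were chosen after their values were seen, and no test was made. Pancreas markers took 21.6% of summed FPKM in before replicate 3, against 29.6% and 33.6% in before replicates 1 and 2. The part of this share in the values above was not tested.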
